A study of Mus musculus with 8 samples.

Results

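The genes described here are 10 immediate early and ERK feedback genes outside the AP-1 family, namely Egr1, Egr2, Egr3, Ier2, Ier3, Nr4a1, Dusp1, Dusp6, Phlda1 and Myc. They were chosen by their symbols among the 31894 genes with an identifier in the deposited count table, and each symbol matched 1 gene. Their RNA was measured in tumor cells of a mouse model of breast cancer brain metastasis (BCBM). Mammary tumor cells of PyMT E-cad-mCFP mice, which carry the polyoma middle-T oncogene under the mouse mammary tumor virus promoter and E-cadherin fused to a cyan fluorescent protein, were passaged serially through the brain. They were then grown as organoids, labelled with nuclear H2B-Dendra2 and injected into the brain of adult female FVB mice that the labels give as wild type. Cells with high (E-cadHI) and low (E-cadLO) E-cadherin were sorted from the BCBM of 4 mice, numbered 57, 58, 67 and 70, and gave 8 bulk mRNA libraries, 4 per population. Every tumor descended from the same organoid line, and both populations of a mouse went through the same digestion, so the replicates are animals and not independent tumors of origin. No other treatment separated the groups. The study checked the purity of its sort on the cells positive for the cyan fluorescent protein, the E-cadHI cells, since the E-cadLO cells were too few. The study also imaged the cyan reporter in sorted cells of both populations and reported that their isolation had succeeded.

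Immediate early genes are transcribed within minutes of a stimulus, without need of new protein synthesis, since the factors that switch them on are already present and are activated by kinases such as ERK. The serum response factor acts at the CArG box together with ETS proteins, and CREB and ATF proteins act at the cAMP response element. Many of the early products then restrain the signal that induced them: dual-specificity phosphatases remove phosphate from MAP kinases, and the short half-life of most of these RNAs ends the pulse. In mammary epithelium the pathway is known as a relay of growth factor receptors and is driven in PyMT tumors by the middle-T oncogene.

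RefSeq windows before the transcription start (build GRCm38.p6) were at hand for 5 of the 10 genes, Egr2, Nr4a1, Dusp1, Dusp6 and Ier3. Both strands of the 250 bases before each start were searched for the CArG box, the cAMP response element TGACGTCA and its short form TGACG, which the full element contains on both strands, the ETS core CCGGAA, the AP-1 element TGANTCA and the EGR element GCGNGGGCG. Among 32851 mouse windows of this length, 1.47% held a CArG box, 1.55% the full cAMP response element, 17.8% the short form, 12.03% the ETS core, 6.75% the AP-1 element and 4.70% the EGR element. The sequences below are those of 3 genes with such elements, Egr2, Dusp1 and Nr4a1, and of Dusp6 without them. They were chosen with the fitted values known, of which those of Egr2 and Dusp1 are the 2 highest. Nr4a1, with matches, and Ier3, without, had log2 fold changes of 0.16 and 0.14. Ier2 and Egr1 had no window, and a link between the elements and the differences was not tested. Matches are in capitals and the lines read 5′ to 3′ on the strand of the gene. Egr2 has 5 windows, of which 1 is given (chr10:67537619-67537868, plus strand), with a CArG box 72 bases and short forms 111 and 55 bases before the start. Those that begin at 67537620 and 67537680 overlap it and hold the same matches. The Egr2 window at chr10:67535249-67535498 held none of the 6 motifs. The Egr2 window at chr10:67537316-67537565 held a CArG box 72 bases and ETS cores 131, 129 and 48 bases before its start. For Dusp1 (chr17:26508520-26508722, minus strand), bases within an annotated exon were left off. Its full element lay 143 bases and a further short form 191 bases before the RefSeq start. Nr4a1 (chr15:101266596-101266845, plus strand) held 4 short forms, an ETS core and an EGR element. Dusp6 (chr10:99262981-99263230, plus strand) and Ier3 held none of the 6 motifs. A match is a string of letters and does not show binding.
Egr2: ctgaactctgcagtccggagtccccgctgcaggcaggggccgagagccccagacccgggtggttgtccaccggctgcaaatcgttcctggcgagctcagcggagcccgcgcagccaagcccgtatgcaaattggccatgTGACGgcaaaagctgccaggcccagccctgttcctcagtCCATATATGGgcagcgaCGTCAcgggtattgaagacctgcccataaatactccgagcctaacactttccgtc
Dusp1: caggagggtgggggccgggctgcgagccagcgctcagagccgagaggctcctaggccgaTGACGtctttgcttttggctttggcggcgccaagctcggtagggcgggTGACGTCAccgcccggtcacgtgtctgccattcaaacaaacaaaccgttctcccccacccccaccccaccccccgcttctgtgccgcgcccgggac
Nr4a1: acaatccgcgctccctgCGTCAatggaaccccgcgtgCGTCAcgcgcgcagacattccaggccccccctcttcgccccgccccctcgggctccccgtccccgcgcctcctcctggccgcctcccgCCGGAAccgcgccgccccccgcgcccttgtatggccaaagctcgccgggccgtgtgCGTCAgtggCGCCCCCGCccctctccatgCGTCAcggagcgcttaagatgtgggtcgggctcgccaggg
Dusp6: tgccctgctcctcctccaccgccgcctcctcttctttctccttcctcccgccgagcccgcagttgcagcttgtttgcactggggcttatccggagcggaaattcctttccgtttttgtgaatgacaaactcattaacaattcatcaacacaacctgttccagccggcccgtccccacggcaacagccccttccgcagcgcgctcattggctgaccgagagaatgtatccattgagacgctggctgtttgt

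Total counts ranged from 9108575 to 15780531 per library, and 3 counts, taken as the floor of detection, corresponded to between 0.202 and 0.349 CPM, the counts of a gene scaled to a common library total. All levels are CPM after TMM scaling, which corrects for differences in library composition. The sort was checked with Cdh1, the gene of E-cadherin, whose RNA was at 93.5 to 132 CPM in the libraries labelled E-cadHI and at 59.2 to 181 CPM in those labelled E-cadLO. It was lower in E-cadLO cells of 3 mice, but in mouse 58 it was at 132 CPM in the library labelled E-cadHI and at 181 CPM in that labelled E-cadLO, so Cdh1 RNA went against the labels in this mouse and values without it are given where they differ. The library of E-cadLO cells of mouse 58 also had 14.4% of its counts on Gm42418, an abundant noncoding RNA, against 2.23 to 7.67% in the others.

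The main question was whether the 10 genes differed between E-cadLO and E-cadHI cells of the same tumors. Egr2, Dusp1, Ier2 and Egr1 had the highest fitted values in E-cadLO cells, with log2 fold changes of 2.10, 0.88, 0.72 and 0.70, while Dusp6 stood at -0.01 and Phlda1 at -0.31. None passed an adjusted p of 0.05 in edgeR's quasi-likelihood test over 13598 genes, in which percent called was 0 for all genes and the smallest adjusted p was 0.114. At an unadjusted p under 0.05, the same edgeR test named 3 of the 9 tested genes, Egr2, Ier2 and Dusp1, as higher in E-cadLO cells and none as lower, beside 8.16% of all tested genes that were higher and 790 genes that were lower. This count was 0 without mouse 57, beside 5.13% of all tested genes, and 0 without mouse 67, beside 4.61%. It was 2 without mouse 58 (Dusp1 and Ier2), beside 8.62%, and 4 without mouse 70, with Egr1 added, beside 8.27%. With the mouse as a block, edgeR named Egr2, Ier2 and Dusp1 at an unadjusted p under 0.05, beside 12.3% of all tested genes. That blocked count was 3 without mouse 57 (Dusp1, Ier2 and Myc), beside 11.5%, and 0 without mouse 67, beside 7.54%. Without mouse 58 it was 3, beside 13.4%, and without mouse 70 it was 4, beside 9.06%.

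Since both populations came from each animal, the mouse was also used as a block. With it, edgeR called none of the 9 genes, beside 0.728% of all genes called higher, and the log2 fold changes of Dusp1 and Ier2 were 0.77 ± 0.22 (SE) and 0.64 ± 0.20. DESeq2 with the block called Egr2, Ier2 and Dusp1 higher, beside 7.19% of all its tested genes, and DESeq2 without the block called none of them, beside 2.64%. The calls by DESeq2 with the block went to 0 without mouse 57 and to 0 without mouse 67, and without mouse 58 they came to 1, Dusp1 (adjusted p = 0.00628). Whether these 3 genes passed therefore differed with the tool and with the mice used.

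**Figure D1:**
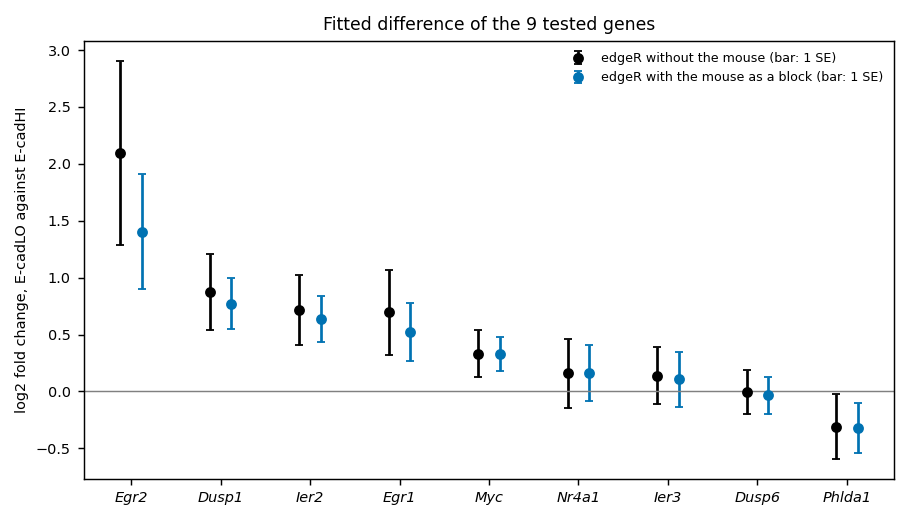
Log2 fold change of E-cadLO against E-cadHI cells for the 9 tested genes (vertical axis, genes in order of the value), fitted by edgeR without the mouse (black) and with the mouse as a block (blue), each with 1 SE. Egr2 stood highest at 2.10 without and 1.40 with the block, and the values of Nr4a1, Ier3 and Dusp6 lay within 1 SE of 0 in both fits.

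The EGR genes encode zinc finger transcription factors that bind GC-rich elements and pass an early signal on to later target genes. Egr1 (ENSMUSG00000038418, chromosome 18, 34859823 to 34864984, plus strand, GRCm38) was at 223, 228, 215 and 154 CPM in E-cadHI cells of mice 57, 58, 67 and 70 and at 609, 259, 314 and 148 CPM in E-cadLO cells. The E-cadHI values lay close together (205 ± 34.3, SD, n = 4), whereas the E-cadLO values spread from below all of them to far above (332 ± 197, SD, n = 4). Egr1 was thus higher in E-cadLO cells of 3 of 4 mice, 2.72-fold, 1.46-fold and 1.13-fold in mice 57, 67 and 58, and at 0.96 of the E-cadHI level in mouse 70. The log2 fold change was 0.70 ± 0.37 (SE; edgeR adjusted p = 0.416) without the block and 0.52 ± 0.26 (edgeR adjusted p = 0.297) with it. Without mouse 57 the value without the block was 0.25, and without mouse 58 it was 0.88.

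Egr2 (ENSMUSG00000037868, chromosome 10, 67535475 to 67542188, plus strand), known from hindbrain and Schwann cell development, was at 6.62, 2.92, 4.98 and 2.99 CPM in E-cadHI cells and at 51.3, 5.82, 15.1 and 2.80 CPM in E-cadLO cells of the same mice. These values rest on 34 to 95 counts per E-cadHI library and 40 to 690 counts per E-cadLO library. Its order of mice was that of Egr1: the log2 ratios, computed on CPM plus 0.5, were 2.86, 0.89, 1.51 and -0.08. The E-cadLO mean was 18.7 ± 22.3 CPM against 4.38 ± 1.78 CPM (SD, n = 4 each), and 2 of the 4 E-cadLO libraries lay within or below the E-cadHI range. The log2 fold change was 2.10 ± 0.81 (SE; edgeR adjusted p = 0.320) without the block and 1.40 ± 0.50 (edgeR adjusted p = 0.205) with it, and 1.11 without mouse 57. DESeq2 with the block gave 1.41 (adjusted p = 0.0486), which moved to an adjusted p of 0.434 without mouse 57 and 0.0752 without mouse 58.

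Egr3, the third member of the family in the set (ENSMUSG00000033730, chromosome 14, 70077445 to 70080157, plus strand), had 0, 5, 1 and 5 counts in E-cadHI cells and 0, 3, 3 and 4 counts in E-cadLO cells. It failed the filter on low counts and was at or near the floor in every library. An exact permutation test of its CPM gave p = 0.943 (two-sided, 4 against 4 libraries, where the smallest possible p is 0.0286), so a difference was not detectable at this depth.

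**Figure D2:**
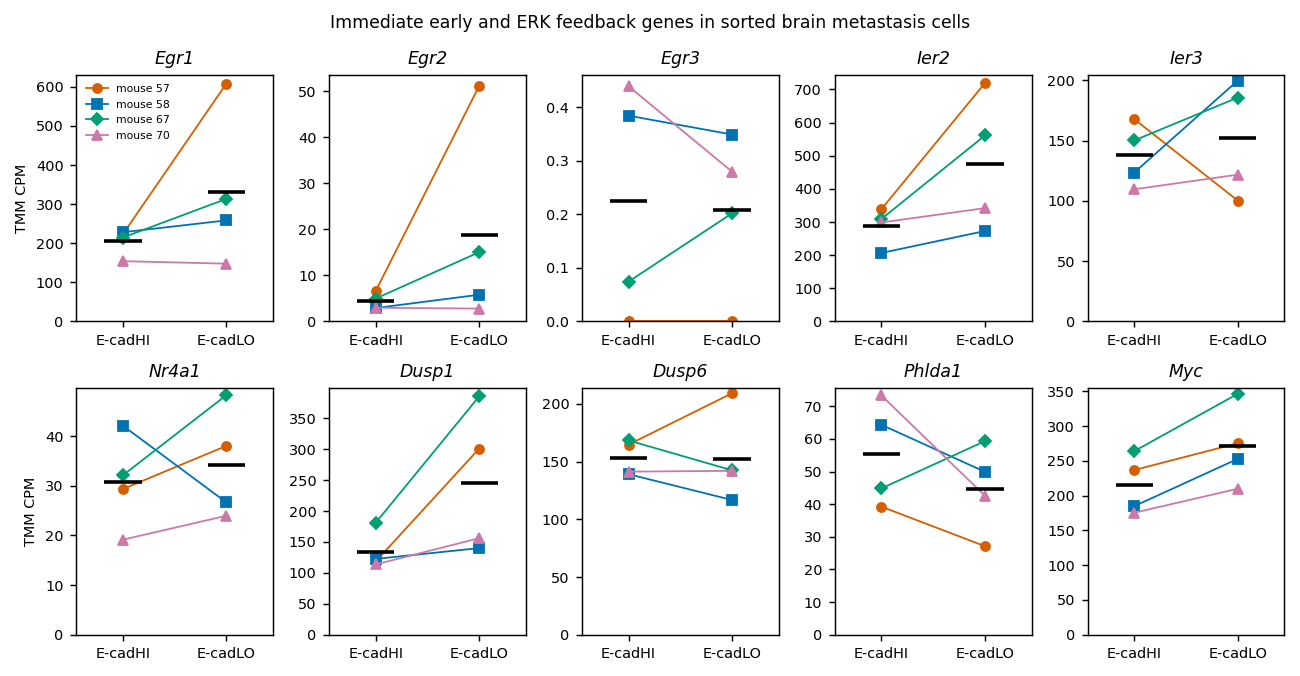
CPM after TMM scaling of each of the 10 genes (vertical axes, each from 0) in E-cadHI and E-cadLO cells, with a line for each mouse and a black bar for the mean of 4 libraries. Egr1, Egr2 and Ier2 were highest in E-cadLO cells of mouse 57 (609, 51.3 and 719 CPM), whereas Dusp1 and Myc were highest in those of mouse 67 (386 and 347 CPM).

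Ier2 and Ier3 are small early response proteins with no DNA-binding domain; Ier3 is known to modulate ERK signaling and survival. Ier2 (ENSMUSG00000053560, chromosome 8, 84661331 to 84662852, minus strand) was at 339, 207, 309 and 299 CPM in E-cadHI cells and at 719, 273, 561 and 342 CPM in E-cadLO cells of mice 57, 58, 67 and 70. It was higher in E-cadLO cells of all 4 mice, by log2 ratios of 1.09, 0.40, 0.86 and 0.20, and only the E-cadLO library of mouse 58 lay within the E-cadHI range. The log2 fold change was 0.72 ± 0.31 (SE; edgeR adjusted p = 0.347), and 0.64 (edgeR adjusted p = 0.177) with the block. DESeq2 with the block gave 0.65 (adjusted p = 0.0321), and 0.73 (adjusted p = 0.0549) without mouse 58. An exact sign-flip test over the 4 mice gave p = 0.125, the smallest it can give.

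Ier3 (ENSMUSG00000003541, chromosome 17, 35821684 to 35822923, plus strand) had no common direction: it was at 168, 123, 150 and 110 CPM in E-cadHI cells and at 100, 200, 186 and 122 CPM in E-cadLO cells. It was lower in E-cadLO cells of mouse 57, by 0.74 on the log2 scale (log2 ratio -0.74), where Ier2 was higher, and higher in the other 3 mice. Its fitted log2 fold change was 0.14 ± 0.25 (SE; edgeR adjusted p = 0.793) and became -0.06 without mouse 58, 0.08 without mouse 67 and 0.39 without mouse 57.

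Nr4a1 (ENSMUSG00000023034, chromosome 15, 101266846 to 101274792, plus strand) encodes an orphan nuclear receptor whose activity follows its abundance. It was at 29.3, 42.1, 32.1 and 19.1 CPM in E-cadHI cells and at 38.0, 26.6, 48.3 and 24.0 CPM in E-cadLO cells. The ranges overlapped almost fully, with log2 ratios from -0.65 in mouse 58 to 0.58 in mouse 67 and a log2 fold change of 0.16 ± 0.30 (SE; edgeR adjusted p = 0.809), which became -0.01 without mouse 67, 0.06 without mouse 57 and 0.46 without mouse 58.

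Myc (ENSMUSG00000022346, chromosome 15, 61985391 to 61990374, plus strand), a transcription factor of growth and ribosome synthesis, was at 237, 185, 264 and 176 CPM in E-cadHI cells and at 275, 253, 347 and 210 CPM in E-cadLO cells. Its difference was small, yet it was the most even of the 10 genes: the log2 ratios were 0.22, 0.45, 0.39 and 0.26 in mice 57, 58, 67 and 70, with a mean of 0.33 ± 0.11 (SD, n = 4). For comparison the SD over mice was 0.66 for Egr1, 1.23 for Egr2, 0.54 for Dusp1 and 0.28 for Dusp6, the next lowest of the tested genes. That of Egr3 was 0.23, but its CPM lay below the 0.5 added to each value, which draws its ratios towards 0. Levels also varied between mice, and the groups overlapped (215 ± 42.2 against 271 ± 57.1 CPM). The log2 fold change was 0.33 ± 0.21 (SE; edgeR adjusted p = 0.461) and 0.33 ± 0.15 (edgeR adjusted p = 0.268) with the block, and it lay between 0.30 and 0.38 in every alternative computed. The exact sign-flip test gave p = 0.125, the smallest possible with 4 mice.

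Dusp1 and Dusp6 are phosphatases with different substrates. Dusp1 is a nuclear, inducible enzyme that acts on p38, JNK and ERK, whereas Dusp6 is a cytoplasmic enzyme specific for ERK and a common readout of ERK output. Dusp1 (ENSMUSG00000024190, chromosome 17, 26505590 to 26508519, minus strand) was at 118, 123, 181 and 114 CPM in E-cadHI cells and at 301, 140, 386 and 156 CPM in E-cadLO cells of mice 57, 58, 67 and 70. It was higher in E-cadLO cells of all 4 mice, by factors of 2.54 and 2.13 in mice 57 and 67 and of 1.37 and 1.14 in mice 70 and 58. The groups overlapped through mouse 67, whose E-cadHI cells had 181 CPM, more than the E-cadLO cells of mice 58 and 70. The log2 fold change was 0.88 ± 0.34 (SE; edgeR adjusted p = 0.317), and 0.77 ± 0.22 (edgeR adjusted p = 0.157) with the block, while DESeq2 with the block gave 0.79 (adjusted p = 0.0216). Without mouse 57 DESeq2 with the block gave 0.57 (adjusted p = 0.0722), and the exact sign-flip p was 0.125.

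Dusp6 (ENSMUSG00000019960, chromosome 10, 99263231 to 99267488, plus strand) stood at 165, 139, 168 and 141 CPM in E-cadHI cells and at 209, 117, 143 and 142 CPM in E-cadLO cells. The means were 153 ± 15.3 and 153 ± 39.7 CPM (SD, n = 4 each), and the log2 ratios of 0.34, -0.25, -0.24 and 0.01 fell on both sides of 0. Its fitted difference was a log2 fold change of -0.01 ± 0.19 (SE; edgeR adjusted p = 0.990). Its sign moved with the scaling and the mice used, between -0.19 and 0.10 over 19 alternatives. A difference between Dusp1 and Dusp6 was not tested.

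Phlda1 (ENSMUSG00000020205, chromosome 10, 111506286 to 111508645, plus strand), a pleckstrin-homology-like protein known to restrain receptor tyrosine kinase signaling, was at 39.2, 64.3, 44.8 and 73.3 CPM in E-cadHI cells and at 27.1, 49.9, 59.3 and 42.6 CPM in E-cadLO cells. It was lower in E-cadLO cells of mice 57, 58 and 70 and higher in those of mouse 67. In the fit it stood at a log2 fold change of -0.31 ± 0.28 (SE; edgeR adjusted p = 0.596), which became -0.56 without mouse 67 and -0.12 without mouse 70.

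Across the 9 tested genes, 27 of the 36 log2 ratios within a mouse were above 0. The size differed by animal: the median log2 ratio was 0.37, 0.19, 0.55 and 0.15 in mice 57, 58, 67 and 70, while the median over all tested genes was between 0.00 and 0.07 in each mouse. The widest spread was in mouse 57, from -0.74 for Ier3 to 2.86 for Egr2, and the narrowest was in mouse 70, from -0.78 for Phlda1 to 0.46 for Dusp1. Ier2, Dusp1 and Myc were higher in E-cadLO cells of 4 of 4 mice, beside 16.8% of all tested genes. For none of the 9 genes did all E-cadLO libraries lie above all E-cadHI libraries, beside 3.9% of all tested genes.

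**Figure D3:**
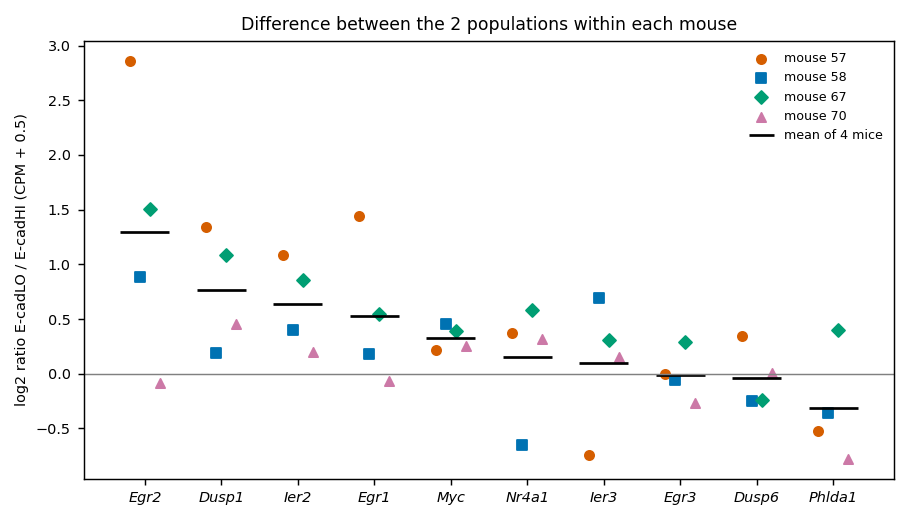
Log2 ratio of E-cadLO to E-cadHI cells within each mouse (vertical axis, on CPM plus 0.5) for the 10 genes in order of their mean, with a marker for each mouse and a bar for the mean. For Egr2 the mice ran from -0.08 to 2.86, whereas for Myc they lay between 0.22 and 0.45.

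The genes also differed in abundance. Per kilobase of exon in E-cadHI cells, Ier2 was at 189 ± 37.4 CPM, Ier3 at 122 ± 23.1, Myc at 79.3 ± 15.5, Dusp1 at 49.7 ± 11.7, Dusp6 at 49.0 ± 4.89 and Egr1 at 45.7 ± 7.66 (SD, n = 4). Neighbors in this order overlapped over the libraries down to Egr1. Below them Phlda1 was at 25.1 ± 7.28, Nr4a1 at 9.28 ± 2.86, Egr2 at 1.29 ± 0.52 and Egr3 at 0.13 ± 0.13 CPM per kilobase, each without overlap with the next higher gene. Egr1 was thus more abundant than Egr2 although the fitted difference of Egr2 was the greater.

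Over the 8 libraries, the log2 levels of Egr1 and Egr2 went together (r = 0.95), as did those of Egr2 and Ier2 (r = 0.90), Ier2 and Dusp1 (r = 0.85) and Dusp1 and Myc (r = 0.85). Dusp6 and Phlda1 ran against each other (r = -0.73). These correlations describe 8 libraries that share mice and sorts. By the same measure, the genes most like the mean of the 9 genes were Ttf1, Rab3gap2 and Poli (r = 0.97 each), with 89 genes above 0.9. The genes most like Egr1 were Pask, Zfp68 and Zbtb43 (r = 0.99, 0.99 and 0.98), with 138 genes above 0.9. For Dusp6 they were Aurka, Tgfbr3 and Haus7 (r = 0.97, 0.96 and 0.96), and for Myc they were Map3k8, Katnbl1 and Cggbp1 (r = 0.97, 0.96 and 0.95).

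The other genes of the pathway were taken from written lists. Among 24 genes of the ERK cascade itself, from ErbB receptors through RAS, RAF and MEK to ERK, RSK and the ETS cofactors of the serum response factor, 10 were above 0 and the median log2 fold change was -0.08, beside 0.06 for all tested genes. Elk3 and Elk1, ternary complex factors, had the highest values (1.59 and 0.82), and Rps6ka1, a kinase downstream of ERK, and Ksr1, a scaffold of the cascade, had the lowest (-0.50 and -0.46). None passed in edgeR with or without the block. At an unadjusted p under 0.05 in edgeR, 1 of the 24, Elk3, was higher, beside 8.16% of all tested genes.

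Of 15 further ERK feedback and ETS genes, 13 were above 0, with a median of 0.40 (0.25 with the block and 0.14 without mouse 57), and none passed in edgeR or DESeq2, with or without the block. At an unadjusted p under 0.05 in edgeR, 1 of the 15 was higher, beside 8.16% of all tested genes. It was the ERK phosphatase Dusp4 (0.87 ± 0.35, SE), named after its value was seen. The highest values were those of Spry1 and Spred3, inhibitors of receptor signaling to RAS (1.28 and 1.14). The lowest were those of Etv5, an ETS factor downstream of FGF and ERK, and Spred1 (-0.34 and -0.33), both lower in E-cadLO cells of all 4 mice. Etv5 was at 54.0 to 65.5 CPM in E-cadHI and 40.6 to 51.1 CPM in E-cadLO cells, without overlap. The shares of all tested genes that were lower in these ways were not counted. The value of Spry1 came from the E-cadLO cells of mouse 57, at 48.7 CPM against 4.65 to 9.60 CPM in the other 7 libraries. Spred3 had 5 counts in E-cadHI and 99 counts in E-cadLO cells of mouse 57. Its log2 ratios were 3.21, -0.54, 1.09 and 0.34 in mice 57, 58, 67 and 70.

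A list of 29 other immediate early genes included the AP-1 subunits. Of 28 tested, 24 were above 0, the median log2 fold change was 0.99 (0.97 with the block), and 14 were higher at an unadjusted p under 0.05 in edgeR, beside the 8.16% of all genes. None passed after adjustment in edgeR without the block, and 5 passed with it (Atf3, Fosl1, Klf10, Plk2 and Plk3), beside 0.728% of all genes. DESeq2 called 12 with the block, beside 7.19% of all its tested genes, and 12 without it, beside 2.64%. Fosl1, an AP-1 subunit, had the highest value (2.89 ± 0.38, SE; edgeR adjusted p = 0.114, and 0.0239 with the block), followed by Atf3, a stress-induced factor (2.13 ± 0.40). Fos, the AP-1 subunit most often used as an immediate early marker, was at -0.38 ± 0.25 (SE, edgeR adjusted p = 0.487), and Jund was at -0.35. The log2 ratios of Fos were -0.98, -0.51, -0.02 and -0.15 in mice 57, 58, 67 and 70, so mouse 67 showed almost no difference. The median ratio of this list in mice 57, 58, 67 and 70 was 1.46, 0.65, 1.02 and 0.27, lowest in mouse 70 as for the 10 genes.

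Of 16 tested relatives and partners of the 10 genes, 12 were above 0, with a median of 0.40. At an unadjusted p under 0.05 in edgeR, 5 were higher, beside 8.16% of all tested genes. They were Nr4a2, Dusp8, Dusp10, Phlda3 and Mxd1, of which Nr4a2, Dusp8 and Mxd1 were named after their values were seen. None passed in edgeR with or without the block. DESeq2 called Nr4a2, Dusp8 and Dusp10 without the block, beside 2.64% of all its tested genes, and all 5 with it, beside 7.19%. Nr4a2, the sister receptor of Nr4a1, was at 3.53 to 5.87 CPM in E-cadHI and 8.26 to 20.6 CPM in E-cadLO cells. Its E-cadLO libraries all lay above its E-cadHI libraries, as held for 3.9% of all tested genes. The log2 fold change of Nr4a2 was 1.31 ± 0.39 (SE, edgeR adjusted p = 0.282), and a difference from Nr4a1 was not tested. Dusp10, a phosphatase of JNK and p38, and Phlda3, a p53 target related to Phlda1, had the highest values (2.0 and 1.89). Max, the partner of Myc, and Nab1, a corepressor of EGR proteins, had the lowest (-0.79 and -0.24). Among 10 heat shock genes the median was 0.09, and none passed in edgeR with or without the block. DESeq2 with the block called 1 of them, Dnajb4, beside 7.19% of all its tested genes. Hspb1 and Dnajb4 were highest (0.88 and 0.83) and Hspe1 and Hspa8 lowest (-0.36 and -0.35).

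**Figure D4:**
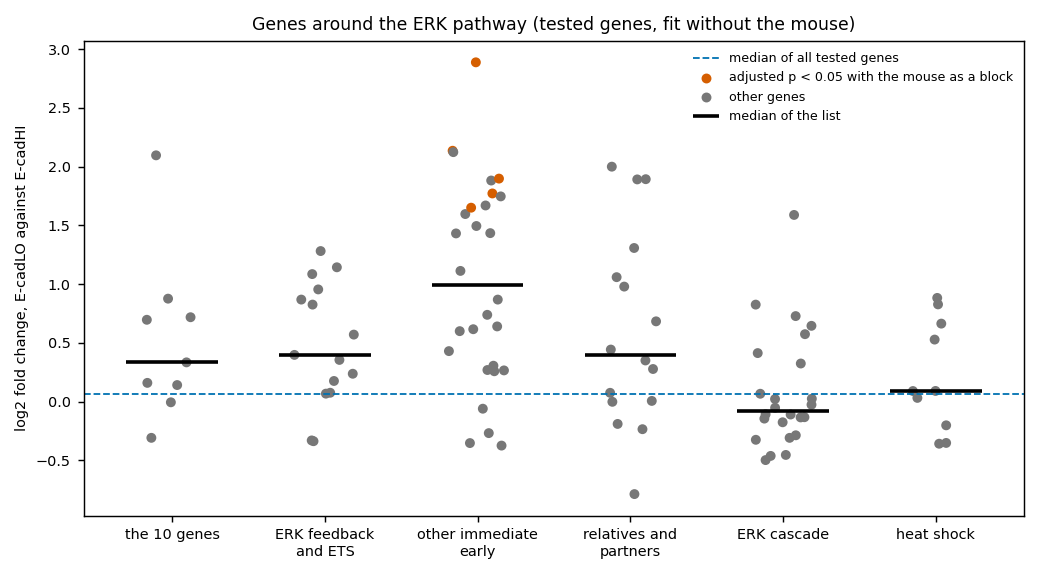
Log2 fold change of E-cadLO against E-cadHI cells (vertical axis, edgeR without the mouse) for the tested genes of 6 lists, a point for each gene and a black bar for the median of each list. The dashed line is the median of all tested genes (0.06), and orange points are the 5 genes, all in the list of other immediate early genes, that passed the threshold of 0.05 in the blocked edgeR fit.

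RNA of brain and stromal cells moved with the populations, and in bulk samples fewer cells of a type and less RNA per cell cannot be told apart. The summed level of 11 microglia and macrophage markers was at 14.9 to 187 CPM in E-cadHI and 163 to 684 CPM in E-cadLO libraries and was higher in E-cadLO cells of 4 mice, with Adgre1 and Ptprc at 0 in at least 1 library. Of 8 oligodendrocyte markers it was at 554 to 8594 and 1313 to 34385 CPM (higher in 4 mice, Olig2 at 0 in at least 1 library), and of 7 astrocyte markers at 1138 to 3403 and 719 to 9453 CPM (higher in 3 mice). The sum of the astrocyte markers was lower in E-cadLO cells of mouse 57, but the median log2 ratio of these markers was 1.87, 0.74, 2.03 and 1.97 in mice 57, 58, 67 and 70. Of 8 neuron markers it was at 28.6 to 151 and 50.2 to 513 CPM (higher in 4 mice, Stmn2 and Tubb3 at 0 in at least 1 library). Of 7 endothelial markers it was at 41.0 to 75.2 and 54.3 to 96.2 CPM (higher in 4 mice, Cldn5, Erg and Kdr at 0 in at least 1 library). Of 8 fibroblast and mural markers it was at 9.13 to 63.0 CPM in E-cadHI and 26.5 to 1201 CPM in E-cadLO libraries (higher in 4 mice, Lum and Pdgfrb at 0 in at least 1 library). Of 5 neutrophil markers it was at 15.6 to 24.9 and 6.84 to 25.8 CPM (higher in 2 mice, with Csf3r, Cxcr2, Ly6g and S100a9 at 0 in at least 1 library). The 10 tumor epithelium markers summed to 7433 to 10140 and 5479 to 13981 CPM and were higher in E-cadLO cells of 2 mice. None of the markers passed in edgeR without the block. With it, 4 microglia and macrophage markers (Cd68, Cx3cr1, Itgam and P2ry12) and 2 of astrocytes (Gfap and Slc1a3) were called higher in E-cadLO cells. So were 2 of oligodendrocytes (Mbp and Mobp) and 1 of neurons (Snap25), beside 0.728% of all genes.

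Within a mouse, the microglia and macrophage sum was 13.1-fold, 2.83-fold, 7.08-fold and 3.66-fold higher in E-cadLO than in E-cadHI cells of mice 57, 58, 67 and 70. For the fibroblast and mural sum the factors were 131, 1.65, 6.38 and 2.89. Both had the same order of mice as the ratios of Dusp1, from mouse 57 through mice 67 and 70 to mouse 58. The ratios of Egr1, Egr2 and Ier2 ran from mouse 57 through mice 67 and 58 to mouse 70. Those of Myc and Ier3 were lowest in mouse 57, and that of Nr4a1 was highest in mouse 67. The oligodendrocyte sum differed by factors of 2.37, 2.35, 4.48 and 4.00, in another order. Mouse 57, which had the highest ratios of Egr1, Egr2, Ier2 and Dusp1, thus also had the highest factors for microglia and for fibroblast and mural markers, and its E-cadLO cells had the lowest tumor epithelium sum (5479 CPM). In E-cadLO cells of mouse 70, Egr1 was at 148 CPM and Egr2 at 2.80 CPM, slightly below the E-cadHI cells of that mouse. Their microglia and macrophage, fibroblast and mural, and oligodendrocyte sums were higher, and their tumor epithelium sum was lower (7891 against 8953 CPM). The part of these cells in the levels of the 10 genes was not tested.

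**Figure D5:**
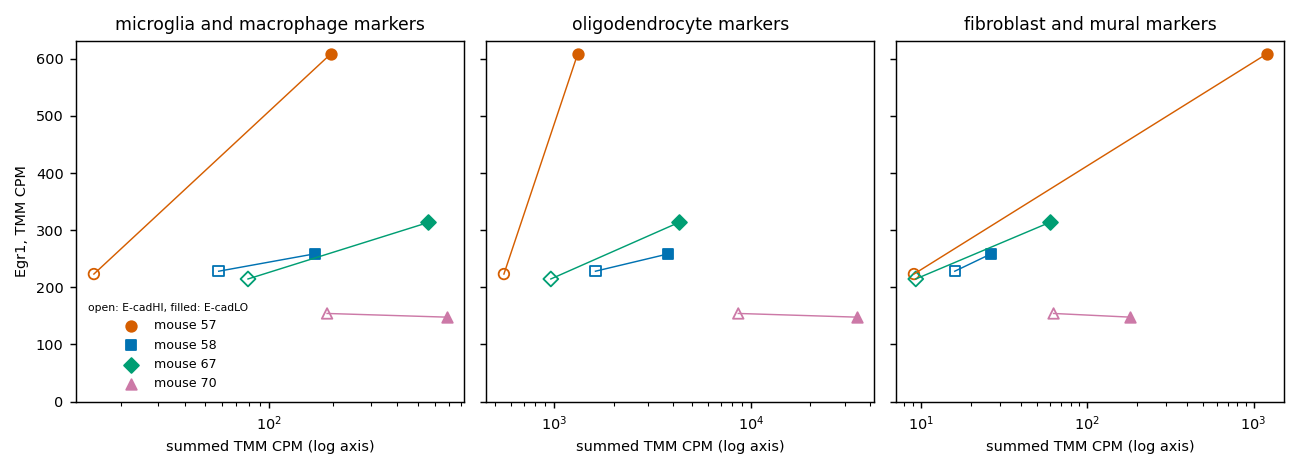
Egr1 in CPM (vertical axis, from 0) against the summed CPM of microglia and macrophage, oligodendrocyte, and fibroblast and mural markers (horizontal log axes) in the 8 libraries, with E-cadHI as open and E-cadLO as filled markers joined by mouse. E-cadLO cells of mouse 57 stand apart at 609 CPM of Egr1 and 1201 CPM of fibroblast and mural markers, and its microglia and macrophage sum differed most between the populations (13.1-fold, against 2.83-fold to 7.08-fold in the other mice).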

How the data were processed

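Tumor cells of 8 sorted populations were sequenced as bulk mRNA. The authors mapped single reads with Hisat and deposited raw, whole-number counts per gene. The submitters' processing notes name HISAT2 2.1.0, HTSeq and GRCm38, the paper names Icount, and strand handling is not given in the sources used here. No other gene of the table overlaps any of the 10 genes. The 365 entries without an identifier (0.06 to 0.10% of counts) were left out. All 8 count columns were used, grouped by the labels.

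The counts were analysed with edgeR 4.0.16 (R 4.3.3): TMM scaling, filterByExpr by population, and the quasi-likelihood test with Benjamini-Hochberg adjustment over 13598 genes. SE is the log2 fold change over the root of F. Following the study's methods, which name no block, the fit without the mouse came first. The labels give both populations of an animal its number, and same-mouse libraries deviated together (r = 0.28 to 0.70 over genes, against -0.52 to 0.15 for different mice), so the block is given where it changed a call or count. Alternatives were DESeq2 1.42.0 with and without the block, other filters and size factors, a robust fit and each mouse left out. Ratios used CPM + 0.5 (0.1 and 2 as alternatives). Exon lengths came from GENCODE M21 within the table's gene bounds. No libraries agreed within sampling noise (smallest chi-square per degree of freedom 27.7 over 28 pairs). The steps were tested on simulated data. The 10 genes, the lists and the rule for named genes (the 10 genes, the highest 2 and lowest 2 of each pathway list, and the 3 best correlated genes) were chosen with earlier results of these data known. The floor of 3 counts covers counting error only, whereas SD and SE include the variation between mice.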

Additional observations from a re-analysis of the deposited data

Results flagged for a closer look

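Dusp1 in E-cadHI cells of mouse 67 was at 181 CPM, far from the other 3 E-cadHI libraries, which lay between 114 and 123 CPM, and it was the only value so marked among 30 sets of 4 values over the 10 genes (both populations and the ratios), where chance alone marks about 1 in 20 such sets, or 1.5 here. Dusp1 was also highest in E-cadLO cells of this mouse, at 386 CPM, so its ratio within the mouse was 2.13-fold.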

How the results depend on the processing

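Of the 10 genes, 0 were called in either direction in edgeR under every alternative computed, the replicate block and each mouse left out included, and 0 by DESeq2. DESeq2 with the replicate block called 3 higher, and without mice 57, 58, 67 and 70 it called 0, 1, 0 and 3, an alternative added after the data were seen. The number higher at an unadjusted p under 0.05 in edgeR, 3, ranged from 0 to 4 with a mouse left out. Over all genes, 0 were called higher in edgeR, 386 by DESeq2, 23 without a filter, 3 with at least 10 counts in every library, 99 with the replicate block and 1031 by DESeq2 with it. Without mice 57, 58, 67 and 70, the replicate block gave 425, 63, 0 and 2 genes called higher and 24, 3, 0 and 0 called lower, and edgeR without it gave 0 in each case. Genes called lower numbered 0 in edgeR, 43 by DESeq2 and 216 by DESeq2 with the block. The list of other immediate early genes had 5 calls with the replicate block. The ERK cascade median, -0.08, ranged from -0.10 to -0.0016, and the heat shock median, 0.09, from 0.071 to 0.39 with a mouse left out. Among the marker lists the replicate block gave 9 calls, named above, and in the other lists it changed no call in edgeR.

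Signs turned for 3 genes, all near 0. Without mouse 58 Ier3 was at -0.061, at -0.079 with the replicate block and at -0.077 in DESeq2 with the block. Nr4a1 was at -0.0095 without mouse 67 and at 0.46 without mouse 58. Dusp6 was at 0.015 in DESeq2, 0.021 with DESeq2's size factors and 0.037 with at least 10 counts in every library. Without each mouse it ranged from -0.19 to 0.096. With the replicate block it was at 0.052 without mouse 58 and 0.045 without mouse 67, and in DESeq2 with the block at 0.053 and 0.048. The causes were not tested. With 4 mice, the exact sign-flip test cannot go below 0.125, and Egr3, with 0 to 5 counts, lay around the floor of 3 counts.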

Other observations

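Genes outside the rule for named genes, chosen after their values were seen, were higher in E-cadLO cells of all 4 mice and did not overlap between the populations, as held for 3.9% of all tested genes. Plk2, a polo-like kinase induced by serum and by p53, was at 203, 136, 240 and 145 CPM in E-cadHI cells and at 846, 390, 1060 and 398 CPM in E-cadLO cells of mice 57, 58, 67 and 70. Its log2 fold change was 1.90 ± 0.37 (SE; edgeR adjusted p = 0.204, and 0.0239 with the block). Klf10, a zinc finger factor induced by TGF-beta, was at 79.0 to 150 CPM in E-cadHI and 162 to 695 CPM in E-cadLO cells (1.77 ± 0.45, SE; edgeR adjusted p = 0.262, and 0.0315 with the block).

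Among phosphatases of MAP kinases, also chosen after their values were seen, Dusp8, which acts on JNK and p38, was at 70.5, 59.5, 89.9 and 80.4 CPM in E-cadHI cells and at 511, 95.0, 361 and 146 CPM in E-cadLO cells. It was higher in 4 of 4 mice, and the groups did not overlap, as held for 3.9% of all tested genes. The log2 fold change of Dusp8 was 1.89 ± 0.48 (SE, edgeR adjusted p = 0.262, and 0.109 with the block). Dusp7, an ERK phosphatase related to Dusp6, was at 11.5 to 23.0 CPM in E-cadHI and 14.0 to 23.7 CPM in E-cadLO cells (0.07 ± 0.28, SE; edgeR adjusted p = 0.920). Of the ERK feedback list, Dusp4 was at 0.87 ± 0.35 (SE, edgeR adjusted p = 0.326) and higher in E-cadLO cells of 4 mice. Dusp5 was at 0.95 ± 0.43 (SE, edgeR adjusted p = 0.362) and higher in 3 mice. A difference between the phosphatases was not tested.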
